A study of Mus musculus with 8 samples.

Results

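The keratins of simple and basal epithelium were followed in 4T1 cells, a mouse mammary carcinoma line, by sequencing of mRNA. The rule named 10 genes, of which 8 were among the 20189 genes of the table: the simple keratins Krt7, Krt8, Krt18, Krt19 and Krt20, the basal keratins Krt14 and Krt17, and Krt80. Krt5 and Krt6a are not analysed here. One group received 5 mM acetate for 48 hours and the other received its vehicle, H2O, over the same time. All cells carried the genotype given as WT, came from this established line and grew in culture medium with serum. Each group had 4 libraries of 19.9 to 29.3 M reads (M, mega), and libraries with the same number carry the same experiment code and were compared as pairs. Nothing in the labels says that cultures were otherwise separate, though the study counts this comparison as 4 independent experiments or tumors. P-values of the paired comparison rest on how much the change varied from pair to pair. The study asked how acetate, a source of acetyl-CoA, alters gene expression in metastatic breast cancer cells.

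Keratins are the intermediate filament proteins of epithelia, and each filament is built from dimers of a type I and a type II chain. Simple, or luminal, epithelium is marked by Krt8 (type II) and its partner Krt18 (type I), together with Krt7 (type II) and Krt19 (type I). In the mammary gland these mark the luminal cells that line the ducts, while the basal, myoepithelial layer is marked by Krt5 (type II) with Krt14 (type I). Krt17 is a type I keratin of basal cells and skin appendages that is induced after injury, and Krt6a is a type II keratin found beside it. Krt20 is a type I keratin of the gut lining and urothelium, and Krt80 is a type II keratin found in many epithelia.

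Krt19, Krt14 and Krt17 rose with acetate, and the most abundant simple keratins, Krt7, Krt8 and Krt18, did not move with them. Krt19 rose 1.32-fold, Krt14 rose 1.28-fold and Krt17 rose 1.75-fold, each of them in 4 of 4 pairs. The luminal pair Krt8 and Krt18, the other luminal keratin Krt7, and Krt80 were each within 0.06 log2 units of their vehicle level in the fitted estimate and did not pass the test. The keratins that rose were thus 1 of the 5 simple and 2 of the 2 basal members analysed. The labels simple and basal did not fully separate the members that rose from those that did not pass. Fold values here are fitted by limma on log2(value + 1), where each library's normalised read counts sum to 20000000 units. In cultures sequenced in bulk, more cells with a keratin and more of its mRNA per cell cannot be told apart.

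The genes lie at separate loci on build GRCm38 (gene spans of GENCODE M21). On chromosome 11 the type I genes run in order as Krt20 (ENSMUSG00000035775, chr11:99428403-99438150), Krt19 (ENSMUSG00000020911, chr11:100140810-100148665), Krt14 (ENSMUSG00000045545, chr11:100203162-100207548) and Krt17 (ENSMUSG00000035557, chr11:100256217-100261029), all on the minus strand. On chromosome 15 lie Krt80 (ENSMUSG00000037185, chr15:101347444-101370162, minus), Krt7 (ENSMUSG00000023039, chr15:101411043-101430313, plus), Krt8 (ENSMUSG00000049382, chr15:101996698-102004482, minus) and Krt18 (ENSMUSG00000023043, chr15:102028180-102032027, plus). Krt8 and Krt18 are 23.7 kb apart and are read away from each other. Krt18 is the type I keratin that lies outside the chromosome 11 cluster. The 3 members that rose are all type I genes of chromosome 11, and the 4 members on chromosome 15 did not pass.

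Sequence upstream of the start site is shown for Krt14, the member past the threshold that the sequence table held, and for Krt7, Krt8 and Krt18, the abundant members that did not pass. RefSeq promoters of build GRCm38.p6 were found for 6 of the 10 members, with Krt19, Krt17, Krt80 and Krt6a unmatched. Each line runs 5′ to 3′ on the strand of the gene toward its RefSeq start, and bases that GENCODE places in the transcript's leader (1 for Krt7, 140 for Krt8 and 36 for Krt18) were left off. Capitals mark matches, on either strand, to GGGCGG, the GC box bound by Sp1, and to GCCNNNGGC, a core of AP-2 sites.
Krt14 (chr11:100206031-100206280, minus): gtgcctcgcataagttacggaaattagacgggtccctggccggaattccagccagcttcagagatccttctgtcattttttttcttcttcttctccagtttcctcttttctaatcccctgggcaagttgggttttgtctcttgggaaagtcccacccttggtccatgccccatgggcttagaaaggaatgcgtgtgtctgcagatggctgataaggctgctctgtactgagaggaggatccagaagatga
Krt7 (chr15:101412153-101412401, plus): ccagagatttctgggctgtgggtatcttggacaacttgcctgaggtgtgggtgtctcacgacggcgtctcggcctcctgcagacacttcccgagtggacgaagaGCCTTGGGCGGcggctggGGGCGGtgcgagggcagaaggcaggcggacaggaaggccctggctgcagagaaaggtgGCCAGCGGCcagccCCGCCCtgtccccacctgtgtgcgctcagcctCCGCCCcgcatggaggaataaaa
Krt8 (chr15:102004483-102004592, minus): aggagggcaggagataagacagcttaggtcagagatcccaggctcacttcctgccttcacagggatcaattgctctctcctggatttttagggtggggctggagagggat
Krt18 (chr15:102027966-102028179, plus): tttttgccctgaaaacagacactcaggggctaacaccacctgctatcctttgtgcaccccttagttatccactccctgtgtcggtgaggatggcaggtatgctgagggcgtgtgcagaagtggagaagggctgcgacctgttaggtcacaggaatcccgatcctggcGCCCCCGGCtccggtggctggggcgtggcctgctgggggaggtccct

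In the 250 bases before the RefSeq start, Krt7 held GGGCGG at 4 places, beginning 141, 128, 56 and 24 bases before the start, and GCCNNNGGC at 146 and 70 bases, the match at 146 overlapping the GC box at 141. Krt18 held GCCNNNGGC once, 83 bases before the start. Krt14 and Krt8 held neither. GGGCGG occurs in 32.7% and GCCNNNGGC in 13.7% of the 32851 RefSeq promoters of this length, both strands searched. CCAAT (33.8% of promoters) and the AP-1 motif TGANTCA (6.75%) were in none of the member windows, and TATAAA (12.4%) was found only in that of Krt20, 29 bases before its start. The windows of Krt14 and Krt7 both lie inside the span GENCODE gives the gene, that of Krt14 in an intron of the principal transcript and that of Krt7 past the start of other Krt7 transcripts, so their matches lie upstream of the RefSeq start only. A match is a run of letters and was not tested as a binding site.

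Levels were first compared between the keratins per kilobase of the principal transcript. In vehicle, Krt18 stood at 12687 ± 1883 units per kb (SD, n = 4) and Krt8 at 8923 ± 829 units per kb. Per kilobase Krt18 exceeded Krt8 in every library, by 1.29 to 1.59 times. Before division by length, Krt8 was the higher in vehicle replicates 1 and 3. Krt8 transcripts also share 22.0% of their 75-base windows with a pseudogene, and those of Krt18 share 0%. The part of this in their order was not tested. Krt19 followed at 2130 ± 852 units per kb. Krt14 reached 609 ± 157 and Krt80 441 ± 141 units per kb, and their vehicle ranges (396 to 738 and 356 to 650) overlapped. Krt17 was far lower at 38.0 ± 15.8 units per kb, and Krt20 was near the floor at 1.5 ± 1.2 units per kb. The place of Krt7 depended on its length: it stood at 3615 ± 168 units per kb with the GENCODE transcript of 4094 bases, above Krt19 in every vehicle library, and at 9333 units per kb with the 1586 bases inside the RefSeq span, where its vehicle range of 8793 to 9790 overlapped that of Krt8 (8465 to 10622). In these cells the simple keratins thus gave most of the keratin mRNA, with basal Krt14 present at a lower level and Krt17 scarce. The 8 genes together made up 0.282% ± 0.026 of all reads in vehicle and 0.284% ± 0.017 in acetate, higher in 1 of 4 pairs.

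**Figure D1:**
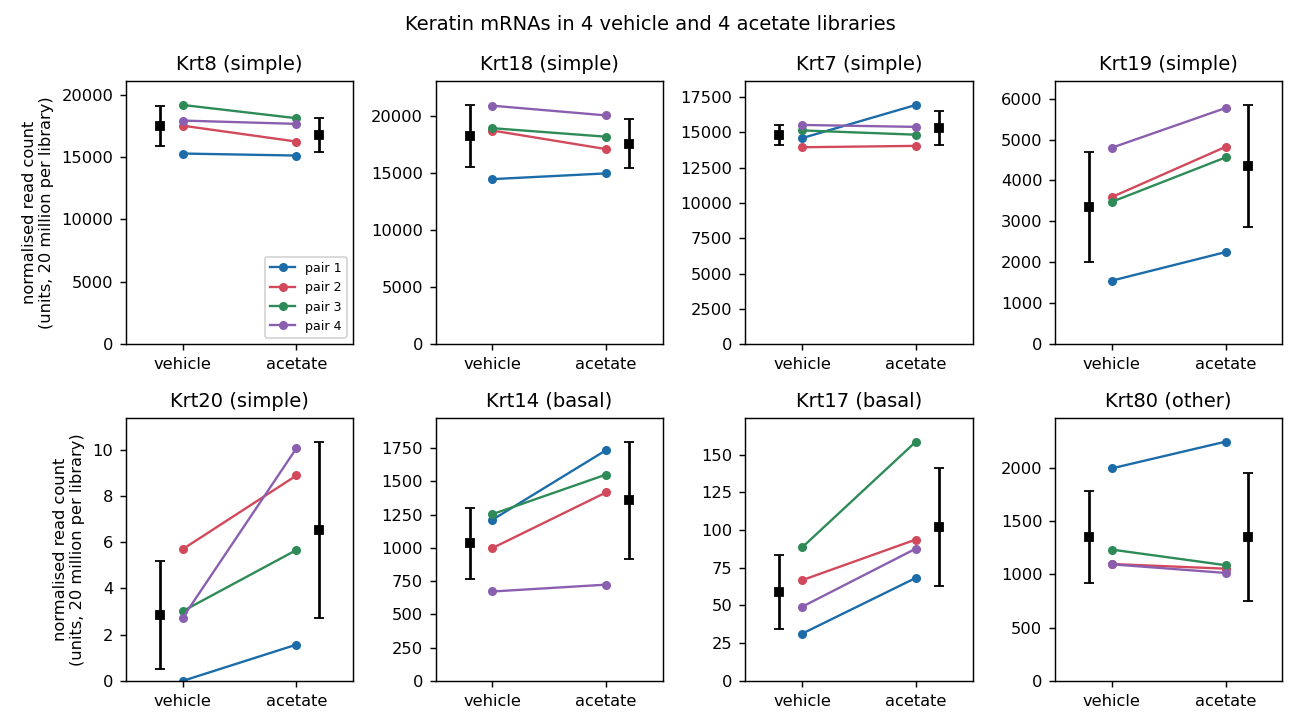
Normalised read count (y axis, units, from 0) of each keratin in vehicle and acetate, with a line joining the libraries of each pair and black squares for the group mean ± SD (n = 4). All 4 lines rise for Krt19, Krt20, Krt14 and Krt17, while pair 1 lies below the others for Krt19 and above them for Krt80.

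The question for each keratin was whether its mean change with acetate was large beside the variation of that change from pair to pair. The test was limma on log2(value + 1) with the replicate number as a block, two-sided, with Benjamini-Hochberg adjustment over all 20189 genes and a threshold of 0.05. It called 8.64% of all genes, 5.99% as higher and 2.65% as lower in acetate, and it called 3 of the 8 keratins, all as higher. The median change of all genes was 0.02 log2 units. Of the calls over all genes 69.3% were higher (1209 of 1744), and with median-of-ratios scaling 54.9% were (1000 of 1821). Without the block limma called none of the 20189 genes (0%), although 353 had an unadjusted p under 0.05 and with the block 4520 did. The keratin results below therefore rest on comparing libraries within pairs.

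Krt19, the smallest keratin, which lacks the tail domain of the others, rose most steadily among the abundant members. Its normalised read count in vehicle replicates 1 to 4 was 1553, 3595, 3478 and 4800. In acetate replicates 1 to 4 it was 2251, 4822, 4564 and 5771. Acetate was higher in every pair, while the groups overlapped, and replicate 1 lay far below the others in both. The overlap did not rest on replicate 1 alone, since vehicle replicate 4 (4800) exceeded acetate replicate 3 (4564). The mean went from 3357 ± 1343 to 4352 ± 1494 units (SD, n = 4). The log2 change was 0.40 ± 0.04 (SE, 95% interval 0.32 to 0.49), with an adjusted p of 0.00025 by limma. It ran from 0.27 in pair 4 to 0.54 in pair 1. Across vehicle libraries alone Krt19 spanned 3.09-fold, more than the 1.32-fold change with acetate. Without the block its unadjusted p by limma was 0.324. Relative to Krt18, per kilobase, Krt19 stood at 0.163 ± 0.047 in vehicle and 0.222 ± 0.058 in acetate, higher in 4 of 4 pairs.

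Krt14, the type I partner of Krt5 in basal cells, also rose. It measured 1212, 999, 1254 and 672 units in vehicle replicates 1 to 4. The acetate libraries gave 1735, 1418, 1551 and 724 units in the same order. Both libraries of replicate 4 were the lowest of their groups, and acetate was higher in each pair although the groups overlapped. The mean went from 1034 ± 266 to 1357 ± 442 units (SD, n = 4), and the log2 change was 0.36 ± 0.06 (SE, 95% interval 0.23 to 0.49, limma adjusted p = 0.0041). The change was 0.52 in pair 1, 0.50 in pair 2 and 0.31 in pair 3, and 0.11 in pair 4. Of the 75-base windows of Krt14 transcripts, 5.71% also occur in Krt16, a neighbouring type I keratin that averaged 37.5 units and did not pass, with a log2 change of -0.12 (adjusted p = 0.75, limma).

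Krt17 had the largest fitted change of the members past the threshold, from a low level. Vehicle replicates 1 to 4 held 31.3, 66.7, 88.5 and 49.1 units, which stand for 41, 82, 88 and 72 reads. Acetate replicates 1 to 4 held 68.3, 93.7, 159 and 87.7 units, or 87, 116, 168 and 122 reads. Every acetate library exceeded its vehicle partner, and vehicle replicate 3 lay within the acetate range. The mean went from 58.9 ± 24.4 to 102 ± 39.2 units (SD, n = 4). The log2 change was 0.81 ± 0.12 (SE, 95% interval 0.54 to 1.08, limma adjusted p = 0.0027), between 0.48 in pair 2 and 1.10 in pair 1. Without replicate 3 limma called only Krt19 of the keratins, and its adjusted p was 0.062 for Krt14 and 0.052 for Krt17, with changes of 0.38 and 0.80 log2 units. On the recovered reads of the same 3 pairs edgeR still called all 3, with an adjusted p of 0.0026 for Krt14 and 0.0042 for Krt17.

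**Figure D2:**
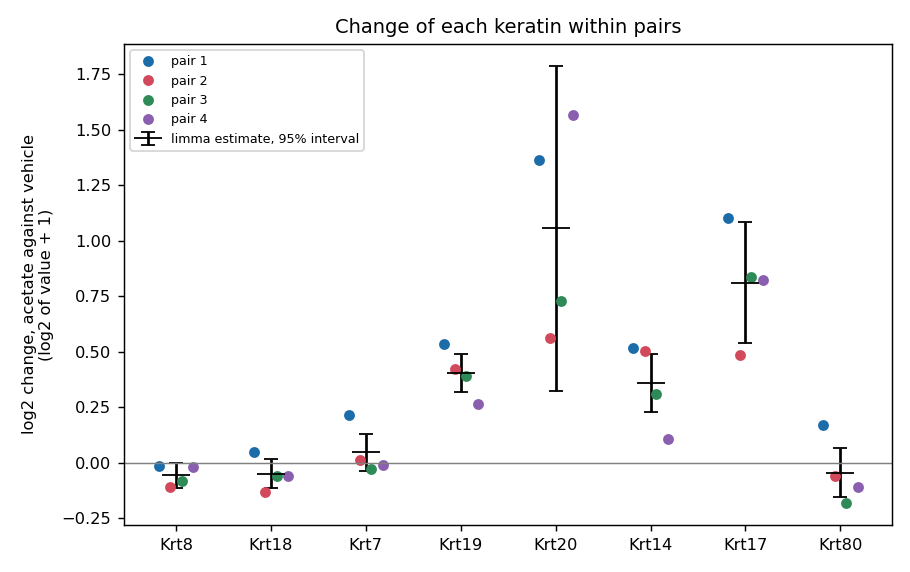
Log2 change of each keratin, acetate against vehicle (y axis, log2 of value + 1), with a coloured point per pair and a black bar for the limma estimate and its 95% interval. Every point lies above 0 for Krt19, Krt20, Krt14 and Krt17, and every point lies below 0 for Krt8.

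Krt8, the type II chain of the luminal filament, was slightly lower in every pair. It measured 15279, 17513, 19173 and 17921 units in vehicle replicates 1 to 4. In acetate it measured 15119, 16237, 18109 and 17657 units. Its groups overlapped over most of their range. The log2 change was -0.06 ± 0.03 (SE, 95% interval -0.113 to -0.00096, limma unadjusted p = 0.047, adjusted p = 0.21), so it did not pass over all genes, of which 11.4% were lower in every pair. Transcripts of Krt8 share 22.0% of their 75-base windows with the pseudogene Krt8-ps, which itself averaged 75.1 ± 9.3 units in vehicle and 69.3 ± 11.2 in acetate.

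Krt18, its type I partner, gave 14446, 18701, 18905 and 20872 units in vehicle replicates 1 to 4. The acetate libraries gave 14950, 17073, 18158 and 20023 units. It was lower in 3 of 4 pairs, with a log2 change of -0.05 ± 0.03 (SE, 95% interval -0.12 to 0.02, limma adjusted p = 0.36). The ratio of Krt18 to Krt8 per kilobase was 1.42 ± 0.13 in vehicle and 1.42 ± 0.09 in acetate (SD, n = 4), higher in 2 of 4 pairs. The mean of this ratio thus differed between the groups by less than its SD.

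Krt7, the second luminal type II chain, measured 14595, 13946, 15139 and 15527 units in vehicle replicates 1 to 4. In acetate it measured 16942, 14045, 14836 and 15389 units. Replicate 1 of acetate was the highest of all 8 libraries, and 2 pairs were higher and 2 lower. The log2 change was 0.05 ± 0.04 (SE, 95% interval -0.04 to 0.13, limma adjusted p = 0.53), and it was -0.01 without replicate 1. Krt7 was also the steadiest member over vehicle libraries, which spanned 1.11-fold, against 1.25-fold for Krt8 and 1.44-fold for Krt18.

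Krt80 set replicate 1 apart in the opposite sense to Krt19. It stood at 1993, 1096, 1231 and 1093 units in vehicle replicates 1 to 4. It stood at 2244, 1052, 1085 and 1013 units in acetate. Both libraries of replicate 1 held the highest level of their group, and acetate was higher in that pair and lower in the other 3. The log2 change was -0.05 ± 0.05 (SE, 95% interval -0.16 to 0.07, limma adjusted p = 0.67), and without replicate 3 it was 0.00. Antisense or overlapping genes were in the table for 3 members: Gm35853 for Krt80, Gm671 for Krt7 and Gm36026 for Krt8, at means of 78.7, 22.9 and 29.9 units. Whether strand was used in counting is not given in the sources used here, so reads there cannot be told apart.

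Krt20 was at the limit of detection. It had 0, 7, 3 and 4 reads in vehicle replicates 1 to 4. It had 2, 11, 6 and 14 reads in acetate. The acetate library was higher in every pair, which held for 16.7% of all genes, and the groups overlapped. The limma estimate was 1.06 ± 0.33 log2 units (SE) with an adjusted p of 0.078, which did not pass, and it ran from 0.54 to 1.86 with the pseudocount and tool used. The floor of 3 reads corresponds to 2.05 to 3.02 units, depending on the library, and covers counting error only.

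Summed simple keratins (Krt7, Krt8, Krt18, Krt19 and Krt20) were set against summed basal keratins (Krt14 and Krt17) in each library, as a description with no test. The ratio of normalised read counts was 36.9, 50.5, 42.2 and 82.0 in vehicle replicates 1 to 4. It was 27.3, 34.5, 32.6 and 72.5 in acetate. Each acetate library was lower than its partner, with the groups overlapping, and the log2 difference averaged -0.38 ± 0.16 (SD, n = 4), from -0.18 in pair 4 to -0.55 in pair 2. Since the summed simple keratins are mostly Krt7, Krt8 and Krt18, and the summed basal keratins mostly Krt14, this ratio largely sets Krt14 against those 3. It holds only the type I basal keratins, with Krt5 and Krt6a not analysed here.

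**Figure D3:**
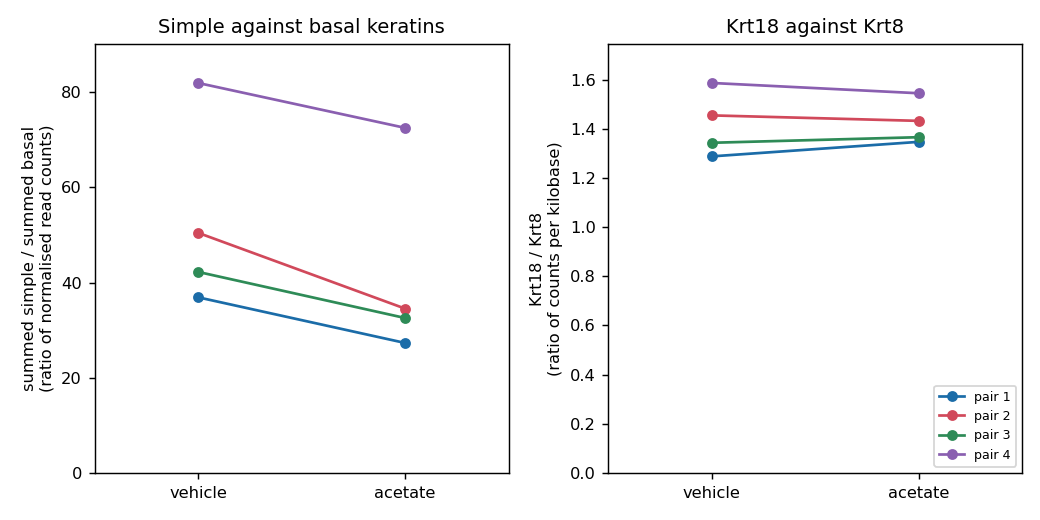
Left, the ratio of summed simple to summed basal keratins (y axis, ratio of normalised read counts) in vehicle and acetate, with a line for each pair. Right, the ratio of Krt18 to Krt8 per kilobase, which stays at 1.42 on average in both groups while all 4 lines on the left fall.

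The table held 11 other keratins. By limma with the block 0 passed in either direction, beside 8.64% of all genes, and 2 had an unadjusted p under 0.05. The median change of the 11 was 0.39 log2 units, beside 0.02 over all genes. On the recovered reads, edgeR called 1 of them and DESeq2 called 0, with 8 left without an adjusted p. Of these, 8 averaged under 10 units. The nearest to the threshold was Krt13, a type I keratin of moist lining epithelium that lies beside Krt15 and Krt19 on chromosome 11, and it was singled out after its values were seen. Krt13 averaged 23.0 ± 22.5 units in vehicle and 35.3 ± 28.5 in acetate (SD, n = 4), higher in 4 of 4 pairs, with a log2 change of 0.85 ± 0.24 (SE, limma adjusted p = 0.052). It was the keratin that edgeR called, with an adjusted p of 0.045, and over the alternatives with the block the adjusted p ran from 0.024 (limma on genes with a mean of at least 10 units) to 0.21 (DESeq2). Krt10, the type I keratin of the upper epidermis, had a log2 change of 0.06 (adjusted p = 0.85, limma), and Krt15, a basal type I keratin next to Krt19, averaged 8.1 units with 0.15 (adjusted p = 0.86, limma). Of the 13 keratins of the table on chromosome 11, the 3 members past the threshold thus lay among neighbours that did not pass. The type I genes between Krt19 and Krt17 differed among themselves, with Krt14 and Krt17 past the threshold and Krt16 not.

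**Figure D4:**
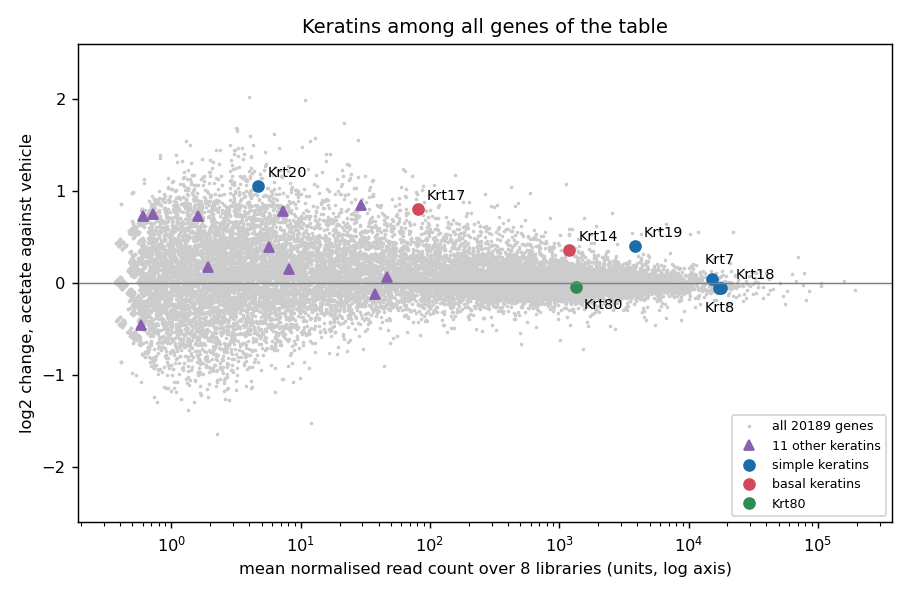
Log2 change, acetate against vehicle (y axis), against the mean normalised read count over 8 libraries (x axis, units, log axis) for all 20189 genes (grey), the members (circles) and 11 other keratins (triangles). Krt19, Krt14 and Krt17 lie above 0, at 0.40, 0.36 and 0.81 log2 units, and Krt7, Krt8, Krt18 and Krt80 lie close to 0.

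Proteins that anchor keratins moved in both directions. Of 13 listed linkers of keratin to desmosomes and other structures 12 were in the table, and 2 rose, 2 fell and 8 did not pass. Over all genes 8.64% were called, 5.99% as higher and 2.65% as lower. The median change of the linkers was -0.02 log2 units beside 0.02 over all genes. Jup, or plakoglobin, a plaque protein of desmosomes and adherens junctions, rose from 3904 ± 1634 to 4661 ± 1962 units (log2 change 0.25 ± 0.03 SE, limma adjusted p = 0.00048). Dsp, or desmoplakin, which ties keratin filaments to the desmosome, rose by 0.12 log2 units (limma adjusted p = 0.028) and is named as the fourth gene called in this list. Its adjusted p was 0.055 with median-of-ratios scaling, 0.11 by DESeq2 and 0.099 to 0.17 by limma without replicate 2, 3 or 4. Plec, the giant linker plectin, fell from 9064 ± 2135 to 7895 ± 1459 units (-0.18 ± 0.04, limma adjusted p = 0.020), and Pkp3, a desmosomal plakophilin, fell from 2253 ± 312 to 2034 ± 245 units (-0.15 ± 0.03, limma adjusted p = 0.011). All 4 hemidesmosome genes were in the table, and Itgb4, the integrin chain that binds keratin through plectin, was the 1 that passed. It fell from 3551 ± 927 to 3108 ± 991 units (-0.21 ± 0.04, limma adjusted p = 0.0050).

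Regulators that define luminal and basal identity were called about as seldom as all genes, of which 8.64% were called. Of 10 luminal regulators 8 were in the table, 1 rose and 7 did not pass, with a median of 0.10 log2 units. Elf3, an epithelial ETS factor, rose from 535 ± 150 to 639 ± 137 units (0.27 ± 0.05, limma adjusted p = 0.0063), while Gata3, the master factor of luminal cells, had a change of 0.03 (limma adjusted p = 0.64). All 10 basal and myoepithelial genes were in the table and 0 passed by limma, where 4 had an unadjusted p under 0.05, with a median of 0.10 log2 units. On the recovered reads edgeR called 1 of the 10 and DESeq2 called 0, with 6 left without an adjusted p. The gene that edgeR called was Trp63, the factor that defines basal cells and drives Krt14. Its values were 2.3, 4.9, 2.0 and 10.9 units in vehicle replicates 1 to 4 and 1.6, 10.5, 11.3 and 30.2 in acetate. It was higher in 3 of 4 pairs, with a change of 1.01 log2 units by limma (adjusted p = 0.14) and 1.34 by edgeR (adjusted p = 0.012). Its adjusted p by limma was 0.023 without replicate 1, where acetate was lower, and 0.45 without replicate 3. The myoepithelial genes Acta2, Myh11 and Cnn1 were near the floor in both groups, with means of at most 3.6 units. Gata3 and Trp63 are named after their values were seen.

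Among 21 genes of squamous differentiation 11 were in the table, and 1 passed, with a median of -0.05 log2 units. This was Padi3, an enzyme that converts arginine to citrulline in proteins of hair and epidermis, which went from 745 ± 410 to 1513 ± 654 units (1.07 ± 0.06, limma adjusted p = 8.2e-06). The 10 others did not pass, and 1 of 11 is near the 8.64% of all genes that were called.

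Other intermediate filament genes were also measured, since they share the filament fold with keratins. Of 11 cytoplasmic members 8 were in the table, 2 rose and 1 fell, with a median of 0.21. Vim, or vimentin, the filament of mesenchymal cells, fell from 28113 ± 3316 to 24741 ± 4242 units (-0.19 ± 0.04, limma adjusted p = 0.0078). Nes, or nestin, rose by 0.16 ± 0.03 (limma adjusted p = 0.0036) and Sync, or syncoilin, rose from 48.8 ± 20.0 to 81.9 ± 32.4 units (0.74 ± 0.13, limma adjusted p = 0.0046). Of 3 lamin genes, which form the filaments of the nuclear lamina, Lmna fell from 21523 ± 3231 to 18317 ± 3085 units (-0.24 ± 0.03, limma adjusted p = 0.00044). Over all these lists and the cell type markers below, 11 of 85 genes were called higher and 5 lower, beside 5.99% and 2.65% of all genes. Jup, Cldn4, Padi3, Nes, Lmna and Pdgfra were called whichever replicate was left out, while Plec, Pkp3, Itgb4, Elf3, Vim, Sync, Cdh1, Csf1r and Pdgfrb each lost the call at least once, with adjusted p of 0.050 to 0.18 by limma there. The 16 calls became 8 without replicate 3 and 9 without replicate 2, and 0 without the block, where 2 had an unadjusted p under 0.05 by limma.

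**Figure D5:**
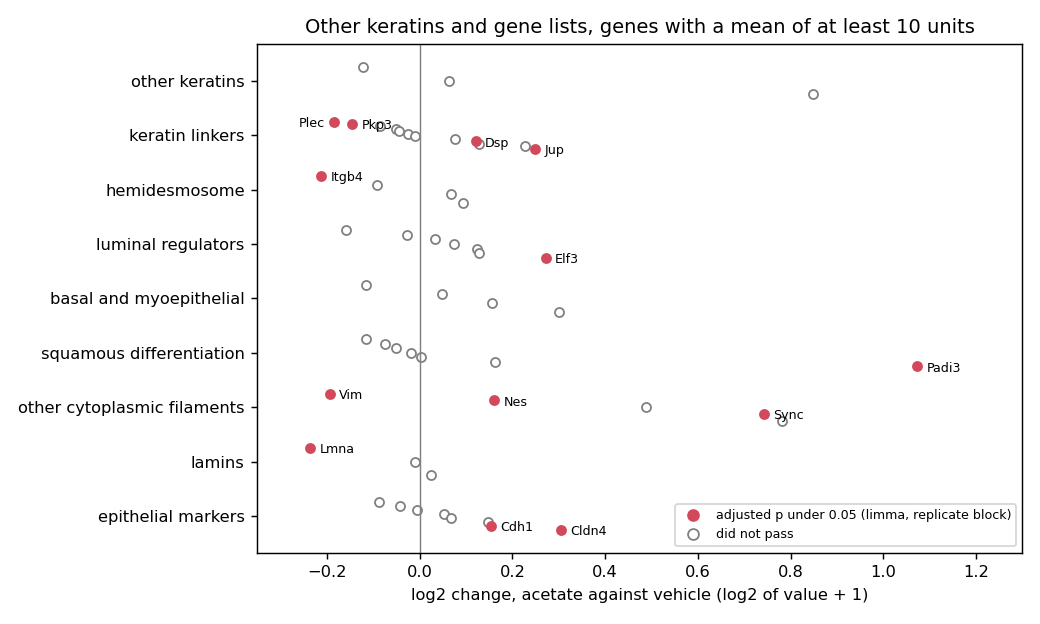
Log2 change, acetate against vehicle (x axis, log2 of value + 1), of genes with a mean of at least 10 units in each list (rows), filled in red where limma with the block passed an adjusted p of 0.05 and open where it did not. Calls lie on both sides of 0 among the linkers and filaments, and Padi3 lies farthest to the right in the lists shown. Leukocyte, endothelial, fibroblast and adipocyte markers are not drawn.

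Markers of cell types were read beside the keratins, and over all genes 8.64% were called. All 8 epithelial markers were expressed, with a summed level of 19014 to 29265 units in vehicle and 21841 to 31713 in acetate. Cldn4, a tight junction protein, rose from 4325 ± 1620 to 5308 ± 1917 units (0.30 ± 0.03, limma adjusted p = 0.00032), Cdh1, or E-cadherin, rose by 0.15 ± 0.03 (limma adjusted p = 0.0059), and 6 did not pass. Replicate 1 had the lowest Cldn4 of its group in both conditions, at 2617 and 3469 units, as it had for Krt19. Of 5 fibroblast markers 3 were in the table, with a summed level of 229 to 1523 units in vehicle and 394 to 1998 in acetate. Most of it was Pdgfra, which rose from 994 ± 544 to 1367 ± 680 units (0.52 ± 0.06, limma adjusted p = 0.00037) and was again lowest in replicate 1. Pdgfrb rose from 10.1 ± 8.8 to 23.3 ± 13.8 units (1.40 ± 0.29, limma adjusted p = 0.012), though with a pseudocount of 0.1 it did not pass (2.19, adjusted p = 0.080) and with a pseudocount of 5 the change was 0.91. Of 6 leukocyte markers 3 were in the table, with sums of 12.3 to 20.3 and 27.4 to 42.8 units, and Csf1r rose from 13.1 ± 3.7 to 28.4 ± 6.2 units (1.08 ± 0.20, limma adjusted p = 0.0077). Ptprc, the marker common to leukocytes, averaged 1.9 and 2.6 units, and Dcn, a marker of fibroblasts, 4.2 and 7.0. Endothelial markers summed to at most 7.1 units in any library and the adipocyte marker Fabp4 to at most 6.6, with 0 of 4 passing by limma or edgeR and 0 at an unadjusted p under 0.05 by limma, and DESeq2 gave none of the 4 an adjusted p. The part of these marker levels in the keratin changes was not tested.

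The genes whose pattern over the 8 libraries was nearest to that of a keratin were found by the root mean square difference of log2 values, each centred on its own mean, among 10830 genes with a mean of at least 64 units. Near to Krt19 were Apbb1 at 0.070 log2 units and Pld3 at 0.071, beside a spread of Krt19 itself of 0.60. For Krt14 they were Ptger4, a prostaglandin E2 receptor, at 0.15, Clba1 at 0.16 and Akap12 at 0.17, beside a spread of 0.47. This measure takes in differences between replicates as well as the change with acetate. By limma with the block, Ptger4 and Clba1 did not pass (adjusted p = 0.55 and 0.34), and Akap12 did (adjusted p = 0.016). Krt17 had no gene as near, with Pik3cd at 0.26, Rgs10 at 0.28 and Syngr3 at 0.28 beside a spread of 0.64. Those for Krt8 were Mettl14 at 0.031, Uri1 at 0.033 and Ccdc34 at 0.034, beside a spread of 0.11. No keratin was among the 3 nearest of these members.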

How the data were processed

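Stranded libraries of poly-A RNA from 4T1 cells were sequenced. The authors mapped the reads to the mouse transcriptome (GRCm38, mm10) and counted them per gene with STAR, and HTSeq is also named in the submitters' processing notes. Versions and the strand setting are not given in the sources used here. The deposited signal is normalised: the authors divided reads by library size, on a total of 20000000 units, and kept genes expressed in 4 or more of the 8 samples. All 20189 genes were above 0 in at least 4 libraries. Each value was a whole multiple of 1 read's worth (tolerance 0.1 read), which gave back the reads, 19.9 to 29.3 M per library. In vehicle replicate 3, 1 read was worth 1.01 units, too near 1 to tell from rounding, so count tests were alternatives only. Columns left without a sample numbered 0 and none was dropped.

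The test was limma 3.58.1 in R 4.3.3 (lmFit, then eBayes with trend, two-sided) on log2(value + 1), which understates changes of low genes, with the replicate number as a block. P-values were adjusted over all genes by Benjamini-Hochberg. The pairing comes from the experiment code shared by same-numbered libraries. After removal of group means, such libraries correlated at 0.81, 0.27, 0.20 and 0.69 for replicates 1 to 4 (across 18188 genes, which are not independent). The fit was checked on simulated data. Symbols and coordinates came from GENCODE M21. Levels per kilobase used the longest principal transcript and, as an alternative, its bases inside the RefSeq span.

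The text names all members, up to 3 called genes of each list with the largest change and a mean of at least 10 units, and the 3 genes most like a member, for 4 members. One gene that this rule picked is not reported here. The members and lists were chosen with earlier results of these data known. Alternatives were pseudocounts of 0.1 and 5, a minimum mean of 10 units, median-of-ratios scaling, no block, each replicate left out, and edgeR 4.0.16 and DESeq2 1.42.0 on the recovered reads. An edgeR fit on the 3 pairs other than replicate 3, the lists under each alternative and the RefSeq lengths were added after seeing the data.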

Additional observations from a re-analysis of the deposited data

Results flagged for a closer look

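Of 48 groups of 4 libraries tested for a value that stands apart (24 genes and ratios in both conditions), 4 met the limit for the gap between that value and the nearest other, relative to the range of the group. Chance flags about 1 in 20 such groups, or 2.4 here. Krt80 in replicate 1 stood apart in vehicle, at 1993 units beside 1093 to 1231 (relative gap 0.847), and in acetate, at 2244 units beside 1013 to 1085 (0.941). Pkp3 in replicate 4 stood apart in vehicle, at 2718 units beside 2058 to 2135 (0.883), and in acetate, at 2401 units beside 1884 to 1935 (0.901).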

How the results depend on the processing

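Without the replicate block the count of genes called fell from 1744 to 0 (353 with an unadjusted p under 0.05), that of keratins from 3 to 0 (none with an unadjusted p under 0.05) and that of list genes from 16 to 0. With the block, all genes called numbered 1126 by DESeq2, 2400 by edgeR (1314 higher, 1086 lower) and 1821 with median-of-ratios scaling. Leaving out a replicate gave 409 to 1662 genes, 1 to 3 keratins and 8 to 16 list genes, the lowest without replicate 3, and the cause was not tested. Krt19, Krt14 and Krt17 were higher under every setting run and were called under each with the block, apart from Krt14 and Krt17 by limma without replicate 3, where edgeR on the same 3 pairs called both. The fitted change ran from 0.36 to 0.45 for Krt19, 0.31 to 0.44 for Krt14 and 0.71 to 0.92 for Krt17. With a replicate left out, Krt7 ran from -0.0106 (without replicate 1) to 0.0708 and Krt80 from -0.1171 to 0.0005 (without replicate 3), so their sign turned, neither past the threshold. The difference in the simple to basal ratio stayed between -0.33 and -0.45. Median-of-ratios scaling moved the median of all genes by 0.02 log2 units. With fewer than 15 reads in each library, Krt20 does not allow a change to be sized.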
